A study of Rattus norvegicus with 11 samples.

Results

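The genes described here encode the axon guidance ligands and receptors of the rat dorsal root ganglion, the nodule beside the spinal cord that holds the cell bodies of the sensory neurons. They were chosen by symbol from the deposited table of gene counts. The symbols taken were Sema, Epha, Ephb, Efna, Efnb, Ntn or Slit followed by a digit, those starting with Plxn, Unc5 or Robo, and Nrp1, Nrp2 and Dcc. Of the 16811 rows of the table, 62 matched, 33 of ligands, 27 of receptors and 2 (Unc50 and Unc5cl) whose symbols start like those of the netrin receptors but whose products are not known as netrin receptors. Neo1 was not analysed here. A gene was tested where 3 or more libraries had a value of 10 or more, which left 59 of the 62 and 12085 of the table. Sema6b and Unc5cl were listed at 0 in all 11 libraries and Ntn5 reached at most 3 estimated reads in any library.

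All ganglia came from Sprague-Dawley rats. The Sham group (n = 4) held ganglia of the right side of sham-operated control rats. The SNL group (n = 4) held ganglia of the left side after spinal nerve ligation, a nerve injury that serves to study neuropathic pain. The UNC0638 group (n = 3) held left ganglia of ligated rats that then received UNC0638, an inhibitor of the histone methyltransferases G9a and GLP. No group received UNC0638 without ligation, and side and ligation cannot be told apart. For the age and sex of the rats, the dose and route of UNC0638 and the time after ligation, no value was given in the sources used here. Replicates are nowhere said to be separate animals, and p-values measure the spread among libraries, which may be technical.

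Guidance ligands steer a growing axon by attracting or repelling its tip, and many of them are also made by glia, vessels and immune cells. Semaphorins signal through plexins, with the secreted class 3 also binding neuropilins. Netrins attract axons through DCC and repel them through UNC5 receptors, slits repel axons through Robo receptors, and ephrins act at cell contacts through Eph receptor tyrosine kinases. In an injured ganglion the same families are known for roles in sensory axon regrowth and in the contact between neurons, glia and immune cells.

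Promoters of the 3 members with the smallest p between SNL and Sham are shown, because they stand for a gene that rose and for a pair that fell. They are the 250 bases before the RefSeq start of the gene on build GRCr8, a later build than the rn4 to which the reads were aligned, written 5′ to 3′ along the gene. Capitals mark GGGCGG, the letters bound by Sp1, and TGACGTCA, the letters bound by factors of the ATF and CREB family, on either strand.
Epha2 (chr5:158888379-158888628, plus strand): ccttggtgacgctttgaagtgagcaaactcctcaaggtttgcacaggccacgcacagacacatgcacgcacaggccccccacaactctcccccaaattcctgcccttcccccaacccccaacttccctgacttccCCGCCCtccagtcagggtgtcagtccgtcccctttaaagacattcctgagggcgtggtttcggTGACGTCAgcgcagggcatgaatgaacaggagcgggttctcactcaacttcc
Robo2 (chr11:26526413-26526662, minus strand): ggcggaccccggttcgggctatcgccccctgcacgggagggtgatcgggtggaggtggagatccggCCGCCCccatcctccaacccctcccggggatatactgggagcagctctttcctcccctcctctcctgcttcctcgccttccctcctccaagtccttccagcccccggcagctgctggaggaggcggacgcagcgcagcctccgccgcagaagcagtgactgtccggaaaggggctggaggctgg
Epha7 (chr5:47771643-47771892, plus strand): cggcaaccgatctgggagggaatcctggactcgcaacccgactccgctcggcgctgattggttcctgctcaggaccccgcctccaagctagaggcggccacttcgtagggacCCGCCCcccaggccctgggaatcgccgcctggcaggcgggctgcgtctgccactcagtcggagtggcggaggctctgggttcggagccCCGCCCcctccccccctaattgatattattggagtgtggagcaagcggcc

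The TGACGTCA of Epha2 starts 52 bases before the start of the gene. A promoter was listed for 49 of the 62 members, with 50 promoters in all. TGACGTCA was found in 1 of these 50 (2%), the Epha2 promoter, against 1.59% of all 33469 promoters of this length. GGGCGG was found in 26 of 50 (52%) against 30.5%. TGANTCA was found in 1 of 50, that of Epha10 (2%), against 6.34%. It takes in the letters bound by the AP-1 factors but allows any base at N. The 3 motifs do not overlap one another in the promoters printed. These matches describe the letters of the windows and are not evidence of binding.

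The scaled totals were 9450045 to 11347920 per library and the reads estimated behind them 6127881 to 24367805. Within a group, the chi-square of the estimated reads per degree of freedom was 5.88 to 78.6 between libraries, where counting noise alone gives about 1. Values are given as scaled counts, as means ± SD over the libraries of a group. Of 12 sensory neuron markers, 10 were in the table, none of them at 0, and their summed level was 298009 to 354735 in Sham, 183324 to 234045 in SNL and 140641 to 205865 in UNC0638 libraries. The summed 8 fibroblast markers stood at 24708 to 35528, 92986 to 222974 and 40048 to 103832 in the same order, and the 12 macrophage markers at 1545 to 3503, 6030 to 9173 and 5711 to 10211. UNC0638 replicate 1 stood apart: its 9 skeletal muscle markers summed to 75398, against 145 to 542 in the other 10 libraries. In RNA of a whole ganglion, fewer cells of a type and less RNA per cell cannot be told apart.

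Sham replicate 3 also stood apart in these genes. It was the highest of the 4 Sham libraries for 49 of the 59 members (83.1%), against 40.7% of all tested genes. SNL replicate 3 was the highest of its group for 27 members (45.8%, against 34.7%). Where the call of a member was lost without a library numbered 3 of Sham or SNL, or without UNC0638 replicate 1, this is given. Calls gained without them are not named, and list genes are given with all libraries alone.

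**Figure D1:**
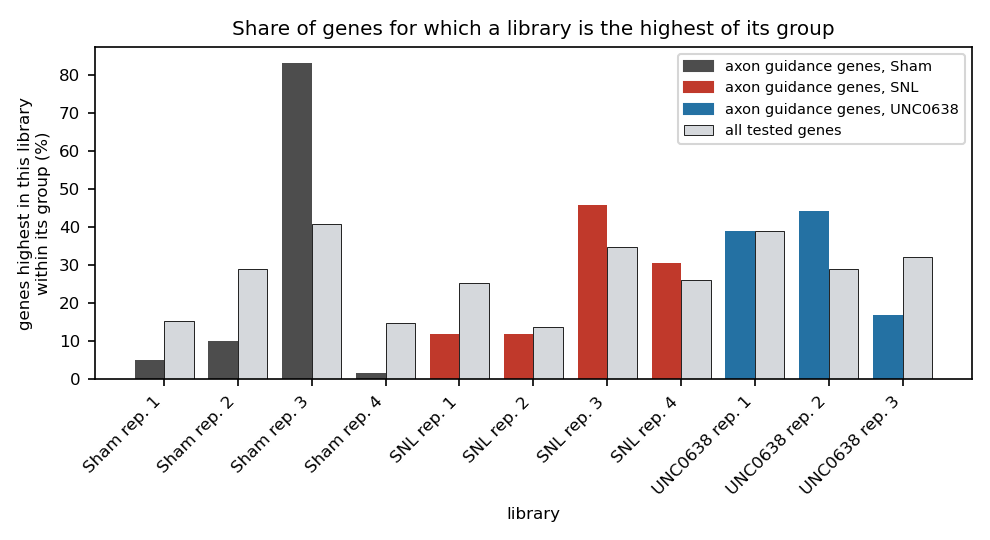
Share of genes (y axis, percent) for which a library (x axis) had the highest value of its own group, for the 59 axon guidance genes (coloured by group) and for all 12085 tested genes (grey). Sham replicate 3 was the highest of its group for 83.1% of the axon guidance genes and for 40.7% of all genes.

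SNL was compared with Sham to ask what ligation changed. Guidance genes moved in both directions: 20 of the 59 rose and 13 fell. The slit receptor gene Robo2 fell 4.11-fold, and the Eph receptor genes Epha2, Ephb2 and Ephb3, the netrin gene Ntn1 and the semaphorin gene Sema3c rose 2.77-fold to 4.48-fold. The members called made up 55.9%, against 48.2% of all tested genes (24.8% higher and 23.4% lower), which is near the background. The median log2 fold change was 0.19, against -0.0033 over all tested genes. The families below hold few genes each, and none was tested as a set. For 16 members all SNL libraries lay above all Sham libraries and for 7 below, where 22.1% and 21.2% of all tested genes did so (43.3% in either direction). Of the 33 calls, 21 held whichever single library was left out. Without SNL replicate 1, 7 members were lower, and 39% of the members and 40.4% of all tested genes were called in either direction.

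**Figure D2:**
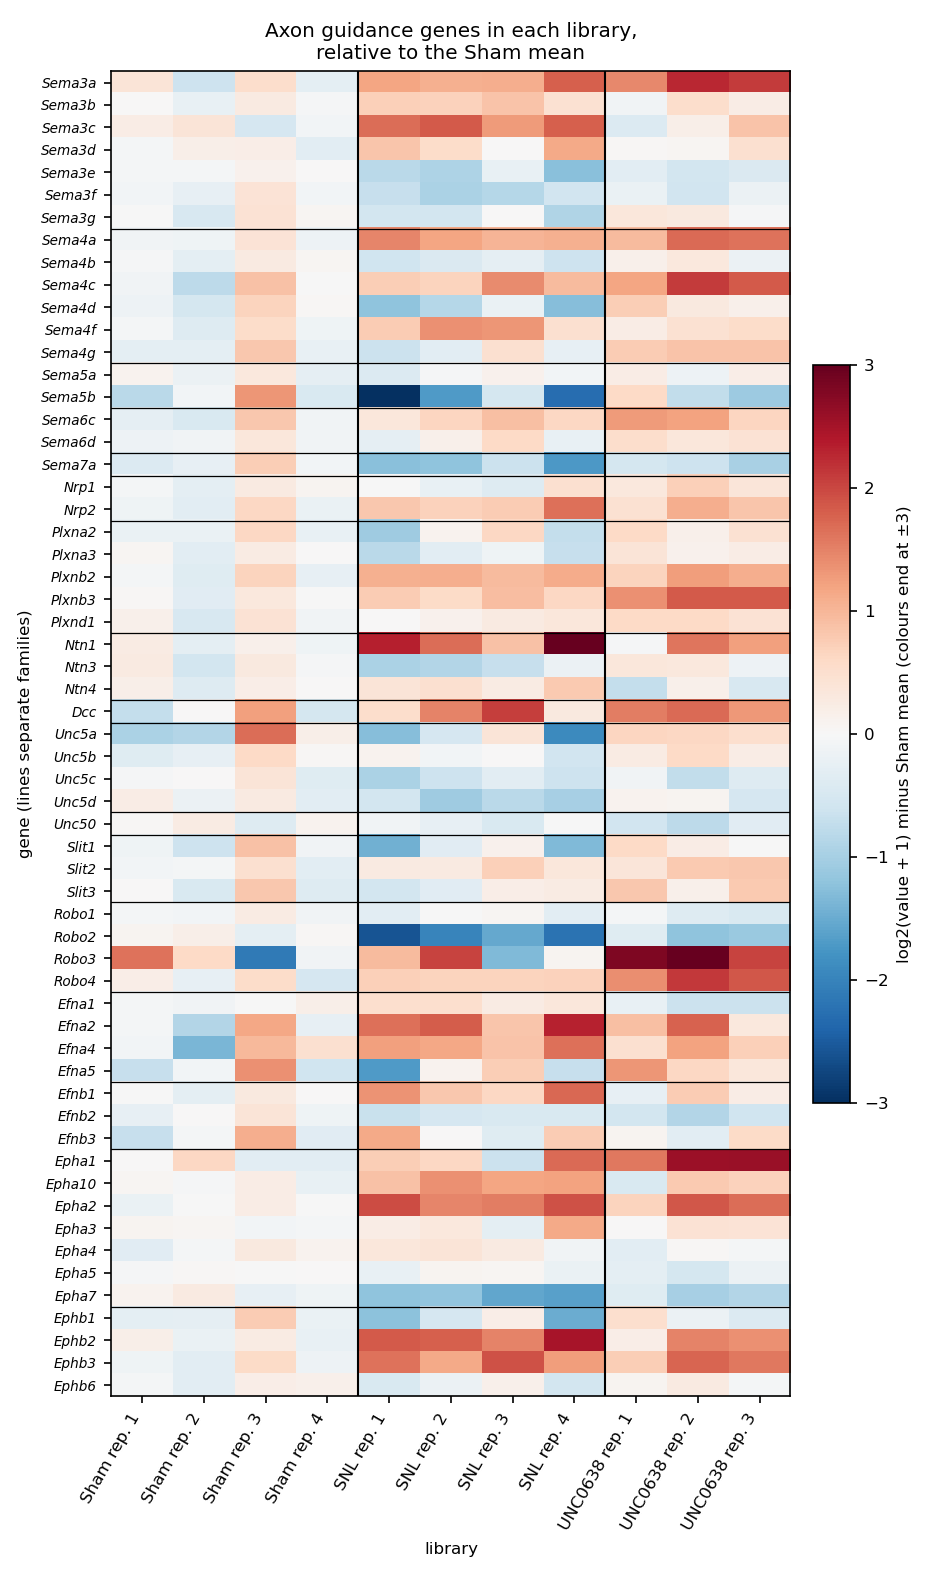
Each of the 59 tested axon guidance genes (rows, grouped by family) in each of the 11 libraries (columns), coloured by log2(value + 1) minus the Sham mean. Robo2, Epha7 and Sema7a are blue, and Epha2, Ephb2, Ephb3 and Ntn1 red, in all 4 SNL libraries, and Sham replicate 3 is redder than the other Sham libraries in most rows.

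Among the secreted class 3 semaphorins, 4 of 7 rose and 2 fell (85.7% called, against 48.2% of all tested genes). Sema3c, a ligand of neuropilin and plexin complexes, stood at 1566, 1754, 949 and 1277 in the 4 Sham libraries and at 4343, 4832, 3279 and 4672 in the 4 SNL libraries (a log2 change of 1.65 with SE 0.26, adjusted p = 0.000486). Every SNL library was above the highest Sham library. The abundant Sema3b rose from 4236 ± 606 to 6779 ± 759 (a log2 change of 0.68 with SE 0.16, adjusted p = 0.00395). Sema3a, which collapses the growth cones of sensory axons, rose from 4.29 ± 1.91 to 11.5 ± 3.31, a change measured on few reads. Estimated reads were 4, 2, 4 and 4 in the Sham and 11, 22, 13 and 18 in the SNL libraries. Sema3a reached the minimum value of the filter in no Sham, 2 SNL and 3 UNC0638 libraries. It was therefore tested only through the groups in which it is high. Sema3d, the fourth that rose, went from 352 ± 56.9 to 561 ± 176 (a log2 change of 0.63 with SE 0.22, adjusted p = 0.0342), and its call was lost without Sham replicate 1, Sham replicate 4, SNL replicate 1, SNL replicate 2 or SNL replicate 4 (adjusted p between 0.0551 and 0.101). The other direction was taken by Sema3f, a ligand of neuropilin-2, which fell from 415, 369, 587 and 419.6 to 271, 228, 243 and 295 (a log2 change of -0.77 with SE 0.16, adjusted p = 0.00216), with no overlap between the groups. Sema3e, which binds plexin-D1 directly, fell from 248 ± 15.7 to 147 ± 46.3 (a log2 change of -0.80 with SE 0.19, adjusted p = 0.00428). Sema3g was not called (1303 ± 334 and 928 ± 256, adjusted p = 0.0780).

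Membrane-bound semaphorins also split. In class 4, 3 of 6 rose and 2 fell (83.3% called, against 48.2% of all tested genes). Sema4a, found on immune cells and elsewhere, stood at 93.2, 92, 134 and 89.9 in Sham and 282, 228, 205 and 213 in SNL (a log2 change of 1.18 with SE 0.20, adjusted p = 0.000575), with all SNL libraries above all Sham libraries. Sema4f rose from 1093 ± 323 to 2174 ± 629 (a log2 change of 0.99 with SE 0.23, adjusted p = 0.00432), although Sham replicate 3 (1559.8) lay above SNL replicate 4 (1479). Sema4c, a ligand of plexin-B2, rose from 337 ± 167 to 608 ± 151 (adjusted p = 0.0280), a call lost without Sham replicate 1, Sham replicate 2, Sham replicate 4, SNL replicate 3 or SNL replicate 4 (adjusted p between 0.0545 and 0.0800). Sema4d, a ligand of B-class plexins, fell from 741 ± 270.2 to 399.8 ± 149 (a log2 change of -0.89 with SE 0.28, adjusted p = 0.0203), and its call was lost without SNL replicate 1 or SNL replicate 4 (adjusted p between 0.0588 and 0.0602). Sema4b fell by less, with a log2 fold change of -0.48 (adjusted p = 0.0208), and missed the threshold without Sham replicate 4, SNL replicate 1 or SNL replicate 4 (adjusted p between 0.0526 and 0.0580). Sema7a, which is held to the membrane by a lipid anchor, fell from 1184, 1314, 2624 and 1489.5 to 660.3, 680.3, 1006 and 477 (a log2 change of -1.20 with SE 0.26, adjusted p = 0.00310). The highest SNL library, replicate 3, was below the lowest Sham library, and Sham replicate 3 was far above the other 3. Sema5b fell from 22.3, 37.5, 101 and 28.4 to 2.82, 11.6, 27 and 7.3, with overlap between the groups (adjusted p = 0.0224), a call lost without Sham replicate 3, SNL replicate 1 or SNL replicate 4 (adjusted p between 0.0534 and 0.0648). Sema5a, Sema6c and Sema6d were not called, with log2 fold changes of -0.10, 0.63 and 0.07.

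The semaphorin receptors gave 3 called higher and 1 lower of 7. Called were 60% of the plexins and 50% of the neuropilins, against 48.2% of all tested genes. Plxnb2, the plexin-B2 gene, rose from 928, 758, 1536 and 824 to 2048, 2058, 1881 and 2101 (a log2 change of 1.06 with SE 0.20, adjusted p = 0.00144). Plxnb3, whose product is a receptor of semaphorin 5A, rose from 582, 454, 712 and 566 to 969, 849.7, 1086 and 874 (a log2 change of 0.72 with SE 0.16, adjusted p = 0.00291). In both, the groups did not overlap. Of the neuropilins, co-receptors of class 3 semaphorins, Nrp2 rose from 785, 689.6, 1321 and 748 to 1499, 1388, 1445 and 2672 (a log2 change of 0.98 with SE 0.25, adjusted p = 0.00776), while Nrp1 stood at 832 ± 136 and 826 ± 227, with a 95% interval of the log2 fold change of -0.44 to 0.37. The difference between the responses of Nrp1 and Nrp2 was not tested. Plxna3 fell from 953 ± 148 to 687 ± 154 (adjusted p = 0.0303), a call lost without Sham replicate 1, Sham replicate 3, Sham replicate 4, SNL replicate 1 or SNL replicate 4 (adjusted p between 0.0624 and 0.0932). Plxna2 and Plxnd1 were not called, and the libraries of Plxna2 ranged widely, 3234 to 5871 in Sham and 1817 to 5809.6 in SNL.

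**Figure D3:**
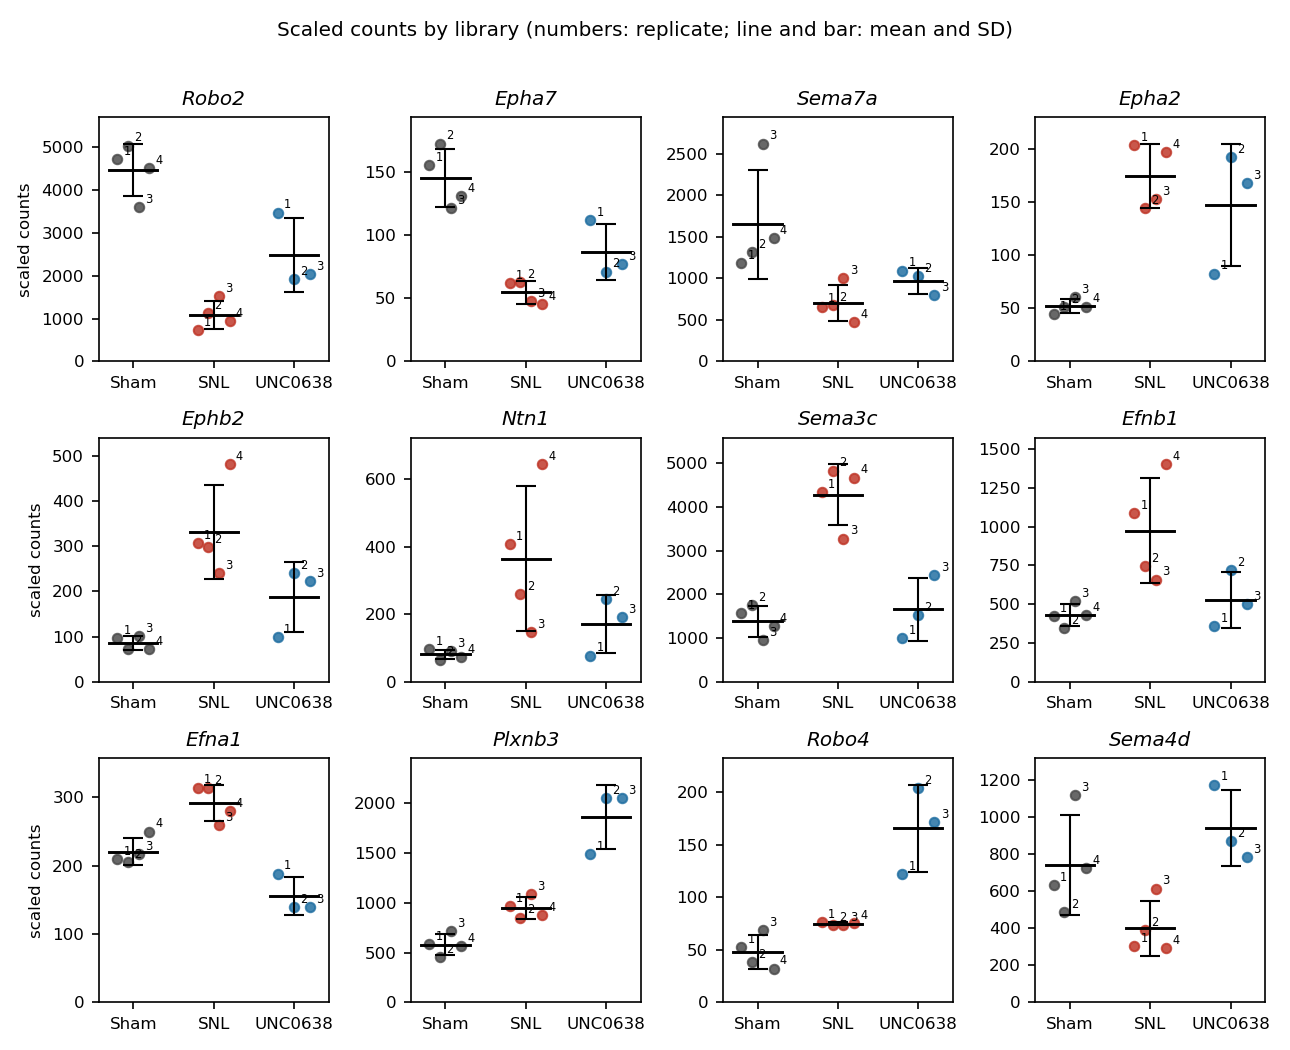
Scaled counts (y axis, from 0) of 12 axon guidance genes in each library by group (x axis), with replicate numbers beside the points and the mean and SD in black. SNL and Sham do not overlap for Robo2, Epha7, Sema7a, Epha2, Ephb2, Ntn1, Sema3c, Efnb1, Efna1, Plxnb3 and Robo4, and UNC0638 lies beyond both other groups for Efna1, Plxnb3 and Robo4.

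Of the 3 netrin genes tested 1 rose and 1 fell (66.7% called, against 48.2% of all tested genes). Ntn1, the secreted netrin that attracts axons through DCC, stood at 96, 65.9, 90.4 and 73.8 in Sham and at 407, 261, 148 and 645 in SNL (a log2 change of 1.96 with SE 0.43, adjusted p = 0.00317), 4.48-fold higher in the mean. The groups did not overlap, but the SNL libraries themselves spread more than 4-fold. Their order was that of the summed fibroblast markers, which were 135432, 98633, 92986 and 222974 in SNL replicates 1 to 4. In Sham, where those sums were 28515, 24708, 35528 and 27733, the 2 highest libraries changed places, and the part of these cells in the result was not tested. Ntn3 fell from 105 ± 26.5 to 65.1 ± 17.3 (adjusted p = 0.0347), a call lost without Sham replicate 1, Sham replicate 3, Sham replicate 4, SNL replicate 1, SNL replicate 2 or SNL replicate 3 (adjusted p between 0.0582 and 0.0959) and with both libraries numbered 3 left out (adjusted p = 0.0984). Ntn4, a netrin of basement membranes, had no overlap between the groups (216, 147, 218 and 191 in Sham, 251, 266, 225 and 327 in SNL) and still missed the threshold (adjusted p = 0.0735).

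Of the 4 UNC5 receptors, which mediate repulsion by netrin, 2 fell (50% called, against 48.2% of all tested genes). Unc5d went from 39, 29.5, 40.5 and 26.9 to 22.6, 15.4, 18.8 and 16.4 (a log2 change of -0.85 with SE 0.24, adjusted p = 0.0127), without overlap. Unc5c went from 383 ± 81 to 247 ± 44.1 (a log2 change of -0.63 with SE 0.19, adjusted p = 0.0167), and its call was lost without SNL replicate 1 (adjusted p 0.0535). Unc5a and Unc5b were not called, with 95% intervals of -2.13 to 0.48 and -0.62 to 0.36 for the log2 fold change. Dcc, the attractive netrin receptor gene, was low, at 12.5, 21.6, 51.4 and 14.6 in Sham and 31, 61.3, 93.1 and 26.4 in SNL, and was not called (a log2 change of 1.09 with SE 0.46, adjusted p = 0.0691).

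Robo2 had the smallest p of all members in this comparison. This gene, which encodes a slit receptor of sensory and other neurons, stood at 4713, 5035, 3607 and 4515 in the Sham libraries and at 739, 1130.0, 1525 and 950.4 in the SNL libraries (a log2 change of -2.08 with SE 0.23, adjusted p = 0.000115), 4.11-fold lower in the mean. The highest SNL library, replicate 3, had less than 1 in 2 of the counts of the lowest Sham library, also replicate 3. The summed sensory neuron markers were 298009 to 354735 in Sham and 183324 to 234045 in SNL. Of the 10, 7 fell, among them the neurofilament genes Nefl and Nefm that make up much of the sum, while Tubb3 and Stmn2 rose and Prph was not called. Their part in the fall of Robo2 was not tested. Robo1 was not called, at 301 ± 37.7 and 272 ± 38.1 (95% interval -0.46 to 0.16). Robo4, a receptor of endothelial cells, rose from 52.9, 38.6, 68.6 and 32.3 to 76.2, 73.3, 73.6 and 75.7 (a log2 change of 0.68 with SE 0.24, adjusted p = 0.0320), a call lost without Sham replicate 2, Sham replicate 4, SNL replicate 1, SNL replicate 2, SNL replicate 3 or SNL replicate 4 (adjusted p between 0.0504 and 0.0969). The 7 endothelial markers in the table summed to 1131 to 1476 in Sham and 1941 to 2449 in SNL. None of the 3 slit genes was called: Slit1 stood at 1635, 1167, 3285 and 1663 in Sham and 662, 1414, 1980.1 and 721 in SNL, with Sham replicate 3 about 2-fold above the other Sham libraries (adjusted p = 0.120), Slit2 at 742 ± 189 and 968 ± 156 (adjusted p = 0.0838) and Slit3 at 371 ± 167 and 332 ± 90.2 (adjusted p = 0.780).

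Of the 11 Eph receptor genes 4 rose and 1 fell, and of the 7 ephrin genes 4 rose and 1 fell. The shares called were 45.5% and 71.4%, against 48.2% of all tested genes, so that the Eph receptors were near the background. Epha2, a receptor of ephrin-A1 found on epithelial and other cells, rose from 44.5, 51.1, 60.8 and 51.5 to 203, 144, 152 and 197 (a log2 change of 1.72 with SE 0.25, adjusted p = 0.000264). Ephb2 rose from 97.4, 73.8, 101 and 73 to 307, 298, 240.3 and 482 (a log2 change of 1.90 with SE 0.29, adjusted p = 0.000362), and Ephb3 from 94.6, 82.9, 154 and 92.2 to 319, 225, 387 and 245 (a log2 change of 1.47 with SE 0.26, adjusted p = 0.000945). In each of the 3 the lowest SNL library was above the highest Sham library. Epha10, whose kinase domain is inactive, rose from 36.4 ± 4.72 to 82.8 ± 11.3 (a log2 change of 1.16 with SE 0.27, adjusted p = 0.00396). Against these, Epha7 fell from 156, 173, 122 and 131 to 62.1, 63, 48.1 and 45.6 (a log2 change of -1.40 with SE 0.20, adjusted p = 0.000239), again without overlap. Epha5, the member of the family with the narrowest interval, stood at 481 ± 11.4 and 458 ± 50.5 (95% interval -0.32 to 0.17). Epha1, Epha3, Epha4, Ephb1 and Ephb6 were not called either.

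Among the ephrin ligands, the transmembrane ephrin-B1 gene Efnb1 rose from 424, 347, 519 and 432 to 1087, 748, 659 and 1403 (a log2 change of 1.13 with SE 0.26, adjusted p = 0.00398) and Efnb2 fell from 141, 168, 218 and 153 to 104, 118, 122 and 121 (a log2 change of -0.52 with SE 0.16, adjusted p = 0.0166). Neither pair of groups overlapped. Efna1, a lipid-anchored ephrin, rose from 221 ± 20.02 to 292 ± 26.9 (a log2 change of 0.40 with SE 0.13, adjusted p = 0.0275), a call lost without Sham replicate 1, Sham replicate 2, SNL replicate 1 or SNL replicate 2 (adjusted p between 0.0665 and 0.0759). Efna2 reached a value of 10 in no Sham, 3 SNL and 1 UNC0638 library and was tested only through the group in which it is high. Efna2 and Efna4, both near the limit of the filter, rose from 3.5 ± 2.94 to 12.1 ± 5.04 (log2 fold change 1.65, adjusted p = 0.0185) and from 8.89 ± 5.65 to 19.2 ± 4.69 (adjusted p = 0.0410). The Efna2 call was lost without Sham replicate 2 or SNL replicate 4 (adjusted p between 0.0548 and 0.0579), and the Efna4 call without Sham replicate 1, Sham replicate 2, SNL replicate 1, SNL replicate 2, SNL replicate 4 or UNC0638 replicate 3 (adjusted p between 0.0524 and 0.104) and with only the 2 groups fitted (adjusted p = 0.0574). Efna5 and Efnb3 were not called.

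UNC0638 was compared with SNL to ask how ligated ganglia changed with the inhibitor. Of the 59 members 11 were higher and 4 lower, 25.4% against 27.8% of all tested genes, again near the background (13.5% higher and 14.3% lower). Plxnb3 and Robo4 were higher than in either other group, Efna1 was lower than in either, Sema3c was lower and Robo2 higher than with ligation alone. The median log2 fold change was 0.36, against 0.0066 over all tested genes. All UNC0638 libraries lay above all SNL libraries for 14 members and below for 4, where 17.7% and 19.9% of all tested genes did so (37.6% in either direction). The counts depended on single libraries: the number higher was 5, 6, 6 and 6 without SNL replicate 1, SNL replicate 2, UNC0638 replicate 1 and UNC0638 replicate 2, and 18 and 17 without Sham replicate 3 and SNL replicate 3. The number lower was 2 without UNC0638 replicate 1 and 8, 7 and 7 without Sham replicate 3, SNL replicate 3 and UNC0638 replicate 2. With both libraries numbered 3 left out 26 were higher and 8 lower. With a term in the model shared by all UNC0638 libraries and by replicate 3 of Sham and of SNL, 3 were higher and 3 lower. The size of this term was set by the Sham and SNL libraries alone, and it was taken off every UNC0638 library. Whether the UNC0638 libraries carry the shift of those numbered 3 was not tested. Calls lost, held or gained with the term depend on that assumption. The share of all tested genes moved with the settings above too. Without SNL replicate 1, SNL replicate 2, UNC0638 replicate 1 and UNC0638 replicate 2 it was 17.2%, 18.7%, 21% and 17.4%. The share of the members was 13.6%, 16.9%, 13.6% and 22% in these fits. Without Sham replicate 3 and SNL replicate 3, 37% and 33.3% of all tested genes were called, against 44.1% and 40.7% of the members. With both libraries left out 44.2% of all tested genes were called, against 57.6% of the members. With the term it was 10.6%, against 10.2% of the members.

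**Figure D4:**
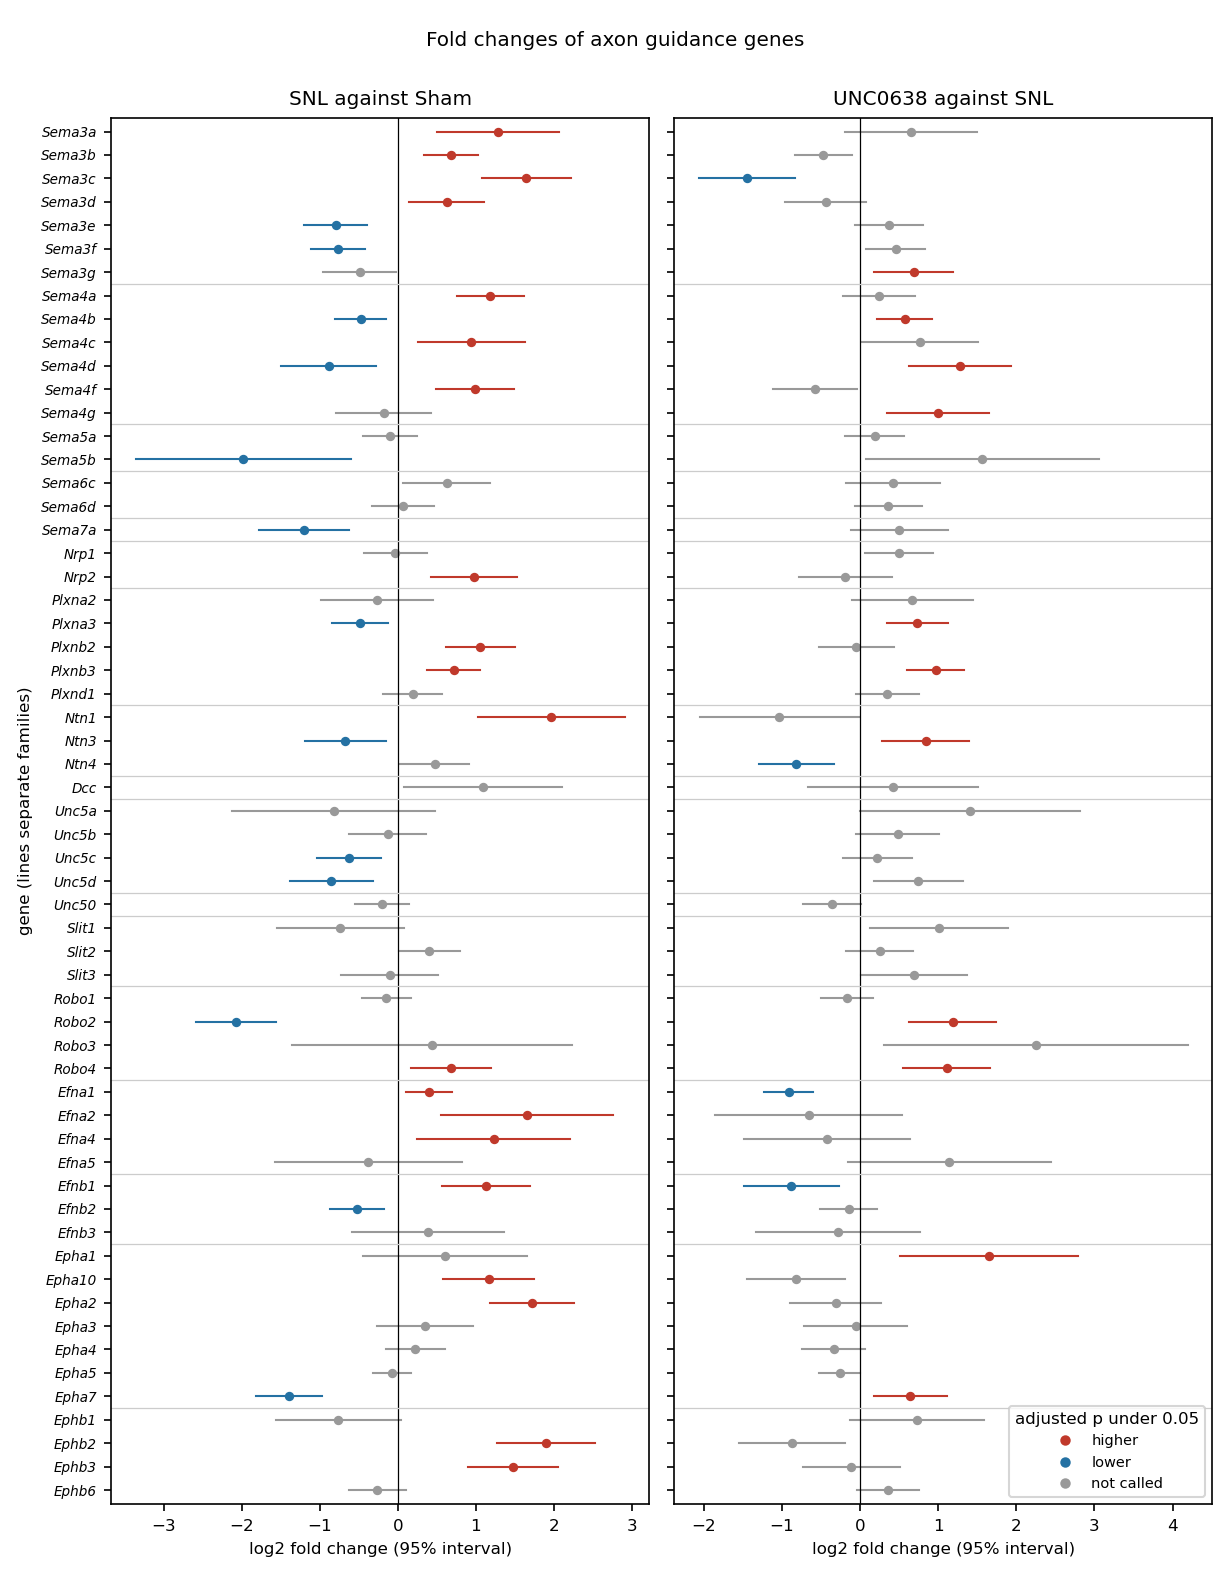
Log2 fold change (x axis) with its 95% interval for each tested axon guidance gene (rows, by family), for SNL against Sham on the left and UNC0638 against SNL on the right, coloured by whether the adjusted p was under 0.05. On the left 20 members are red and 13 blue, and on the right 11 and 4. The panels share the SNL libraries.

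The calls of Efna1 and Plxnb3 held in every alternative and with every library left out. Efna1 stood at 314, 313, 259 and 280.0 in SNL and at 188, 139 and 139 in the UNC0638 libraries (a log2 change of -0.91 with SE 0.15, adjusted p = 0.00166), against 210.1, 206, 217 and 249.8 in Sham. All 3 UNC0638 libraries lay below all 8 others, as for 10.4% of all tested genes, and Efna1 was the only such member. Plxnb3 stood at 1486, 2044 and 2047 with UNC0638 against 969, 849.7, 1086 and 874 in SNL (a log2 change of 0.97 with SE 0.17, adjusted p = 0.00245). All 3 libraries lay above all Sham and SNL libraries, as they did for Robo3 and Robo4, against 9.34% of all tested genes. The lowest UNC0638 library of Plxnb3 was replicate 1, the library with the high muscle marker sum.

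Of the 4 Robo genes, Robo2 and Robo4 were higher with UNC0638 (50% called, against 27.8% of all tested genes). Robo2 stood at 3473, 1918 and 2037 against 739, 1130.0, 1525 and 950.4 in SNL (a log2 change of 1.18 with SE 0.25, adjusted p = 0.00663). Replicate 1, the highest, came close to the lowest Sham library (3607), and the other 2 lay above the highest SNL library (1525). The call held without replicate 1 (adjusted p = 0.0242) and was lost with the model term (a log2 change of 1.06, adjusted p = 0.0543). Robo4 stood at 122, 204 and 172 against 76.2, 73.3, 73.6 and 75.7 (a log2 change of 1.11 with SE 0.26, adjusted p = 0.00937). The endothelial marker sums were 1997 to 2452 with UNC0638 and 1941 to 2449 in SNL, of 6 tested markers Flt1 was higher and Tek lower, and their part in the result was not tested. With the model term its adjusted p was 0.101. Robo3, a receptor of commissural axons, was read from few counts, an estimated 33, 26 and 13 reads with UNC0638, 8, 39, 1 and 4 in SNL and 9, 5, 0 and 4 in Sham, and was not called (log2 fold change 2.25, adjusted p = 0.0769). It was called with the model term (adjusted p = 0.00596). Robo1 and the 3 slit genes were not called.

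Semaphorin genes gave 4 higher and 1 lower of 18 (27.8% called, against 27.8% of all tested genes). Sema3c was lower, at 1008, 1525 and 2437 against 4343, 4832, 3279 and 4672 (a log2 change of -1.45 with SE 0.28, adjusted p = 0.00441), every UNC0638 library being below every SNL library. The call held without replicate 1 (adjusted p = 0.0153) and was lost with the model term (a log2 change of -1.01, adjusted p = 0.0505). Sema4d stood at 1173, 869 and 782 against 305, 389, 613 and 292 (a log2 change of 1.28 with SE 0.30, adjusted p = 0.0103), without overlap, with an adjusted p of 0.0967 under the model term. Sema4g stood at 186, 196 and 196 against 68.7, 87, 153 and 92.1 (a log2 change of 1.00 with SE 0.30, adjusted p = 0.0292), a call lost without SNL replicate 1, SNL replicate 2, SNL replicate 4, UNC0638 replicate 1, UNC0638 replicate 2 or UNC0638 replicate 3 (adjusted p between 0.0608 and 0.0809) and with the model term (adjusted p = 0.370). In Sema4g the replicates numbered 3 of Sham (190.1) and SNL (153) lay nearer to or among the UNC0638 libraries than the others of their groups did. Sema4b (361 ± 61.1 against 242 ± 28, log2 fold change 0.57, adjusted p = 0.0235) lost its call without SNL replicate 1, SNL replicate 4, UNC0638 replicate 1 or UNC0638 replicate 2 (adjusted p between 0.0592 and 0.0965) and with the model term (adjusted p = 0.242). Sema3g (1465 ± 203 against 928 ± 256, log2 fold change 0.69, adjusted p = 0.0457) lost it without Sham replicate 1, Sham replicate 4, SNL replicate 1, SNL replicate 2, SNL replicate 4, UNC0638 replicate 1, UNC0638 replicate 2 or UNC0638 replicate 3 (adjusted p between 0.0518 and 0.129), without the filter (adjusted p = 0.0513), with TMM scaling (adjusted p = 0.0536) and with the model term (adjusted p = 0.530). Of their receptors, Plxna3 was higher besides Plxnb3, at 1232, 1035 and 1107 against 534, 759, 868 and 586 (a log2 change of 0.73 with SE 0.18, adjusted p = 0.0121), with an adjusted p of 0.141 under the model term.

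Netrin genes went both ways. Ntn4 stood at 116, 213 and 137 against 251, 266, 225 and 327 (a log2 change of -0.82 with SE 0.22, adjusted p = 0.0186), without overlap, and Ntn3 at 130.0, 127 and 91.6 against 52.7, 55.3, 62.3 and 90.3 (a log2 change of 0.84 with SE 0.26, adjusted p = 0.0306). The Ntn4 call was lost without SNL replicate 4, UNC0638 replicate 1 or UNC0638 replicate 3 (adjusted p between 0.0506 and 0.0723) and the Ntn3 call without SNL replicate 1, SNL replicate 2, UNC0638 replicate 1 or UNC0638 replicate 2 (adjusted p between 0.0770 and 0.0989). With the model term the adjusted p values were 0.0929 and 0.186. Ntn1 was not called, at 78, 246 and 191 against 407, 261, 148 and 645 (log2 fold change -1.04, 95% interval -2.05 to -0.02, adjusted p = 0.113). As in SNL, the order of its UNC0638 libraries was that of the summed fibroblast markers (40048, 103832 and 83816), whose part was not tested. No UNC5 gene and not Dcc was called.

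Among Eph receptor genes 2 of 11 were higher and among ephrin genes Efnb1 was lower besides Efna1. The shares called were 18.2% and 28.6%, against 27.8% of all tested genes. Epha7 stood at 112, 71.2 and 77.4 against 62.1, 63, 48.1 and 45.6 (a log2 change of 0.64 with SE 0.21, adjusted p = 0.0409), and its call was lost without Sham replicate 1, Sham replicate 4, SNL replicate 1, SNL replicate 2, SNL replicate 3, SNL replicate 4, UNC0638 replicate 1 or UNC0638 replicate 3 (adjusted p between 0.0528 and 0.152), with only the 2 groups fitted (adjusted p = 0.0646), with limma-voom on estimated reads (adjusted p = 0.104) and with the model term (adjusted p = 0.0546). Epha1 stood at 14.3, 29.4 and 29.7 against 7.52, 6.86, 2.25 and 15.5 (a log2 change of 1.65 with SE 0.52, adjusted p = 0.0352), which are an estimated 16, 19 and 23 and 8, 16, 3 and 17 reads. Epha1 reached a value of 10 in all 3 UNC0638 libraries, 1 SNL library and no Sham library, so that it was tested only through the group in which it is high. That call was lost without SNL replicate 1, SNL replicate 2, SNL replicate 3, UNC0638 replicate 2 or UNC0638 replicate 3 (adjusted p between 0.0563 and 0.115) and with only the 2 groups fitted (adjusted p = 0.0543). Efnb1 stood at 361, 719 and 501 against 1087, 748, 659 and 1403 (a log2 change of -0.88 with SE 0.28, adjusted p = 0.0359), a call lost without Sham replicate 1, Sham replicate 4, SNL replicate 1, SNL replicate 4, UNC0638 replicate 1 or UNC0638 replicate 3 (adjusted p between 0.05002 and 0.136), with only the 2 groups fitted (adjusted p = 0.0593) and with the model term (adjusted p = 0.181). The genes that ligation had raised most in this family were not called: Epha2 stood at 82.5, 192 and 168 (95% interval -0.89 to 0.27), Ephb2 at 98.7, 241 and 223 (adjusted p = 0.0542) and Ephb3 at 173, 349.6 and 309.6 (95% interval -0.73 to 0.51). In all 3, replicate 1 was the lowest UNC0638 library and the nearest to Sham.

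UNC0638 was compared with Sham to ask which genes differed from uninjured ganglia when the inhibitor followed ligation. Of the members, 17 were higher and 6 lower, 39% against 51.5% of all tested genes (25.5% higher and 26.0% lower). Plxnb3, Robo4, Sema4a and Epha2 had the smallest p. The median log2 fold change was 0.34, against -0.011 over all tested genes, and 12 and 7 members had no overlap in the higher and lower direction, where 23.4% and 24.9% of all tested genes had none (48.4% in either direction). The number higher was 10 without UNC0638 replicate 2, 11 without UNC0638 replicate 3 and 11 with the model term, and the number lower was 2 without UNC0638 replicate 2. Without UNC0638 replicate 2 and UNC0638 replicate 3, 20.3% and 25.4% of the members were called, against 38.7% and 40.6% of all tested genes. With both libraries numbered 3 left out, 27 were higher and 8 lower. The members called then made up 59.3%, against 60.6% of all tested genes, which is near the background. With the model term, 32.2% of the members and 42.4% of all tested genes were called. This comparison shares its Sham libraries with the first and its UNC0638 libraries with the second, so that the values below are set beside those above and are not independent of them.

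Plxnb3 stood 3.21-fold above Sham (a log2 change of 1.68 with SE 0.17, adjusted p = 6.67e-05) and Robo4 3.45-fold (a log2 change of 1.79 with SE 0.26, adjusted p = 0.000303). Sema4a, with UNC0638 libraries at 196, 328 and 315, was higher (a log2 change of 1.43 with SE 0.21, adjusted p = 0.000366), and so were Epha2 (a log2 change of 1.41 with SE 0.27, adjusted p = 0.00131), Ephb3 (a log2 change of 1.36 with SE 0.28, adjusted p = 0.00231) and Plxnb2 (a log2 change of 1.01 with SE 0.22, adjusted p = 0.00291). Their calls held with each library left out and with the model term. The same was true of Sema4c, at 705, 1335 and 1103 against 289, 178, 572 and 308 (a log2 change of 1.71 with SE 0.34, adjusted p = 0.00184). Sema3a, at 12.6, 23.2 and 20.6 against 5.56, 2.27, 6.23 and 3.07 (a log2 change of 1.94 with SE 0.39, adjusted p = 0.00181), and Epha1 (a log2 change of 2.25 with SE 0.52, adjusted p = 0.00402) were also called higher, on low counts. No Sham library of either reached 10, and Sema3a did so in 2 SNL and all 3 UNC0638 libraries, so that both were tested only through the groups in which they are high. Sema6c, a membrane-bound semaphorin, was higher (296 ± 65.7 against 149 ± 66.7, a log2 change of 1.05 with SE 0.28, adjusted p = 0.00816), but not with the model term (adjusted p = 0.114). Slit2, the only slit gene called in any comparison, stood at 930.1, 1248 and 1277 against 683, 693, 1014 and 579 (a log2 change of 0.65 with SE 0.19, adjusted p = 0.0153), a call lost without UNC0638 replicate 2 or UNC0638 replicate 3 (adjusted p between 0.0625 and 0.0649) and with the model term (adjusted p = 0.221).

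Dcc stood at 63.7, 71.2 and 54.2 against 12.5, 21.6, 51.4 and 14.6 (a log2 change of 1.51 with SE 0.50, adjusted p = 0.0246), with all UNC0638 libraries above all Sham libraries. Sham replicate 3 (51.4) lay near the lowest of them, and the call was lost without Sham replicate 1, Sham replicate 4, UNC0638 replicate 1, UNC0638 replicate 2 or UNC0638 replicate 3 (adjusted p between 0.0502 and 0.0810) and with the model term (adjusted p = 0.411). Nrp2 was higher (1503 ± 321 against 886 ± 293, a log2 change of 0.79 with SE 0.27, adjusted p = 0.0295), a call lost without Sham replicate 1, Sham replicate 2, Sham replicate 4, UNC0638 replicate 2 or UNC0638 replicate 3 (adjusted p between 0.0662 and 0.123) and with the model term (adjusted p = 0.168). The other genes called higher were Ephb2, Plxnd1, Robo3 and Sema4g, with log2 fold changes of 1.02, 0.54, 2.69 and 0.82. Robo3 reached 10 in all 3 UNC0638 libraries and in 1 library each of Sham and SNL, so that it too was tested only through the group in which it is high. The Ephb2 call was lost without UNC0638 replicate 2 or UNC0638 replicate 3 (adjusted p between 0.0768 and 0.0862) and the Robo3 call without Sham replicate 4, UNC0638 replicate 1 or UNC0638 replicate 2 (adjusted p between 0.0516 and 0.0914). The Plxnd1 call was lost without Sham replicate 2, Sham replicate 4, UNC0638 replicate 1, UNC0638 replicate 2 or UNC0638 replicate 3 (adjusted p between 0.0502 and 0.0871), with only the 2 groups fitted (adjusted p = 0.0532) and with the model term (adjusted p = 0.273). The Sema4g call was lost without Sham replicate 1, Sham replicate 2, Sham replicate 4, SNL replicate 2, UNC0638 replicate 1, UNC0638 replicate 2 or UNC0638 replicate 3 (adjusted p between 0.0503 and 0.0976) and with the model term (adjusted p = 0.714).

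The 6 genes lower than in Sham were Robo2, Epha7, Efnb2, Efna1, Epha5 and Unc50. Robo2 was 1.80-fold lower in the mean (a log2 change of -0.89 with SE 0.25, adjusted p = 0.0118), a call lost without UNC0638 replicate 2 or UNC0638 replicate 3 (adjusted p between 0.0548 and 0.0615), and Epha7 1.67-fold lower (a log2 change of -0.75 with SE 0.21, adjusted p = 0.0115), lost without UNC0638 replicate 2 (adjusted p 0.0568) and with the model term (adjusted p = 0.101). Efnb2 stood at 114, 91.3 and 111 against 141, 168, 218 and 153 (a log2 change of -0.67 with SE 0.17, adjusted p = 0.00654), a call that held with each library left out and with the model term. Efna1 was lower (a log2 change of -0.51 with SE 0.15, adjusted p = 0.0118), lost without UNC0638 replicate 2 or UNC0638 replicate 3 (adjusted p between 0.0530 and 0.0537) and with the model term (adjusted p = 0.0755). Epha5 (a log2 change of -0.34 with SE 0.12, adjusted p = 0.0355) lost its call without Sham replicate 1, Sham replicate 2, Sham replicate 4, UNC0638 replicate 1 or UNC0638 replicate 2 (adjusted p between 0.0503 and 0.159), with only the 2 groups fitted (adjusted p = 0.0612) and with the model term (adjusted p = 0.0508), and Unc50 (a log2 change of -0.57 with SE 0.17, adjusted p = 0.0159) lost it without UNC0638 replicate 2 (adjusted p 0.0772) and with the model term (adjusted p = 0.213).

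The 3 UNC0638 libraries were not alike in these genes. Of the 33 members called between SNL and Sham, 24 lay nearer the Sham mean than the SNL mean in UNC0638 replicate 1 on the log2 scale, against 10 in replicate 2 and 9 in replicate 3. Ephb2, for example, stood at 98.7, 241 and 223 in replicates 1 to 3, and Ntn1 at 78, 246 and 191. The position between the 2 means was not worked out for all tested genes. Replicate 1 was the highest of its group for 39% of the members and 38.9% of all tested genes. It was the lowest for 42.4% and 36.9%. Replicate 1 also had the high muscle marker sum given above. Of the other marker sums, those of fibroblasts (40048 against 103832 and 83816) and macrophages (5711 against 10211 and 9640.0) were lower in it, and that of sensory neurons (205865 against 152440.0 and 140641) higher, than in replicates 2 and 3. The part of any of these in the values was not tested.

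Genes that act with the guidance receptors were read from 2 further lists. The first held 58 effectors, such as collapsin response mediators, adaptors, kinases and cofilin. Of its 54 tested genes 22 rose and 11 fell between SNL and Sham, 61.1% against 48.2% of all tested genes, with a median log2 fold change of 0.20. Dpysl4, which encodes a collapsin response mediator protein, fell from 1960.2, 1430.3, 1712 and 2015 to 280.3, 318, 453 and 321 (a log2 change of -2.38 with SE 0.24, adjusted p = 0.000101). Vav2, an exchange factor that acts downstream of Eph receptors, fell from 1404 ± 172 to 614 ± 108 (log2 fold change -1.20, adjusted p = 0.000158). The adaptor gene Nck2 rose from 158 ± 27.5 to 409.7 ± 31.6, and the tyrosine kinase gene Fes, also expressed in myeloid cells, from 44.1 ± 3.74 to 145 ± 34, with adjusted p values of 0.000160 and 0.000180. Macrophage marker sums were 1545 to 3503 in Sham and 6030 to 9173 in SNL, and their part in the rise of Fes was not tested.

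With UNC0638, 8 effector genes were higher and 6 lower than in SNL (25.9%, against 27.8% of all tested genes), and 20 higher and 10 lower than in Sham (55.6%, against 51.5%). Against SNL, Dpysl4 was higher (1004 ± 424, adjusted p = 0.00243), as was Vav2 (1118 ± 184, adjusted p = 0.00362). Cfl1, the gene of the actin-severing protein cofilin, was lower in all 3 libraries, 4653, 4001 and 3575 against 9185, 9065, 8356 and 8278 in SNL (a log2 change of -1.10 with SE 0.12, adjusted p = 0.000307), and against Sham as well (a log2 change of -1.13 with SE 0.12, adjusted p = 9.01e-05). Against Sham, Fes (296 ± 96.2) and Rac2 (198 ± 61.8 against 34.1 ± 17.4), a Rac of blood cells, were higher and Cdk5 lower, with log2 fold changes of 2.67, 2.57 and -1.02.

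The second list held other guidance and adhesion molecules, 39 of them tested. Between SNL and Sham 8 rose and 16 fell, 61.5% of those tested against 48.2% of all tested genes, with a median log2 fold change of -0.30. Flrt3, whose product binds UNC5 receptors, rose from 282, 247, 302 and 219.8 to 2694, 3192, 2633 and 2349 (a log2 change of 3.37 with SE 0.33, adjusted p = 0.000101), and Ptpro, a receptor phosphatase gene, from 397 ± 66.5 to 1049 ± 183. The contactin gene Cntn4 fell from 345, 423, 416 and 319.7 to 15, 30.01, 93.1 and 18.2 (a log2 change of -3.60 with SE 0.46, adjusted p = 0.000162) and Rtn4rl1, of the Nogo receptor family, from 1464 ± 117 to 415 ± 178. With UNC0638, 9 were higher and 3 lower than in SNL (30.8%, against 27.8% of all tested genes). The 4 genes with the smallest p in that comparison, which shares the SNL libraries, were these same 4, with Cntn4 at 310.3, 176 and 159, Rtn4rl1 at 1050.2 ± 365, Flrt3 at 973 ± 601 and Ptpro at 549 ± 131, and adjusted p values of 0.00286, 0.00599, 0.00600 and 0.00587. Against Sham 8 were higher and 4 lower (30.8%, against 51.5%), among them Cdon and Flrt3 higher (log2 fold changes 1.02 and 1.67) and Cntn1 and Rtn4 lower (-0.77 and -0.74).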

How the data were processed

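RNA of dorsal root ganglia was sequenced as single-end reads of 50 bases from stranded total RNA libraries after removal of ribosomal RNA. Per the labels, RNA was extracted with Trizol or RNeasy, without saying for which sample. The authors aligned reads to rn4, and the submitters' processing notes list TopHat2 2.0.9 and Cuffdiff 2.1.1. Annotation, use of strand and treatment of shared reads were not given in the sources used here. Reads of overlapping or antisense genes can therefore not be told apart. Each deposited signal value is a gene count scaled by the authors with 1 factor per library. Median-of-ratios factors computed on them were all within 0.9976 and 1.002. Most low values are whole multiples of 1 step per library (0.429 to 1.56), taken as 1 read. Fractional values remain, so that no count test on whole reads was run. Estimated reads were rounded for limma-voom, which was used as an alternative alone.

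Pcdhgc5 and Sdc2 were left out of all fits after their values were seen in an earlier analysis, and genes are identified by symbol alone (24 names of the table are altered to dates). limma (3.58.1, R 4.3.3, statmod 1.5.0) was fitted to log2(value + 1) over the 11 libraries, each group having its mean, followed by eBayes (trend, robust), and tests were two-sided. The added 1 makes fold changes of low genes too small. p-values were adjusted by Benjamini-Hochberg over 12085 genes, and an adjusted p under 0.05 was called. The fit was tested on simulated data with the same relative spread for all genes and no library that stood apart. That test therefore does not cover libraries that stand apart, such as Sham replicate 3. Members called are described as risen or fallen against Sham, and as higher or lower in the other comparisons.

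The members, the lists and the alternatives were chosen with earlier results of these data known. In each comparison, values are given for the 12 called members with the smallest p and the first called member of each family, and for other members where they complete a family. List genes are the 4 called with the smallest p, of which 1 is not reported here. The 9 lists of cell type markers were read as sums of scaled values. Of the 62 symbols, all 62 are current in RefSeq GRCr8, whose coordinates are given for printed promoters alone. Marker sums not given in the text were, over Sham, SNL and UNC0638 libraries, 55359 to 71722, 46486 to 49866 and 46759 to 53960 for satellite glia, 67375 to 81088, 72240 to 100032 and 59824 to 72130.2 for Schwann cell myelin, 177 to 439, 753 to 1017 and 694 to 1228 for T cells and 29.2 to 198, 92.4 to 196 and 577 to 769 for neutrophils.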

Additional observations from a re-analysis of the deposited data

Results flagged for a closer look

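Dixon's criterion at the 95% level flags about 1 in 20 sets of independent, normally distributed values. The sets here share their libraries, and the share flagged over all tested genes was not worked out. Within the groups of 4, a library lay far from the other 3 by this criterion in 12 of 118 sets of 4 values. In 9 of them it was Sham replicate 3 that lay high: Plxna2 (5871, the next library at 3317), Sema6d (1547 and 1136), Nrp2 (1321 and 785), Ephb1 (466 and 239.8), Robo1 (357 and 289), Sema4g (190.1 and 93.0), Ephb3 (154 and 94.6), Sema4a (134.0 and 93.2) and Efna5 (101.3 and 36.4). Robo1, Plxna2, Ephb1, Sema6d and Efna5 were called in no comparison, so that no call rests on these values there. The Sema4g calls, UNC0638 against SNL and UNC0638 against Sham, held without Sham replicate 3. SNL replicate 4 lay high for Nrp2 (2672, the next at 1499) and Sema3a (16.4 and 10.3), and SNL replicate 3 for Slit2 (1199 and 926). The calls of Nrp2, Ephb3 and Sema4a between SNL and Sham held without Sham replicate 3, and those of Nrp2 and Sema3a without SNL replicate 4.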

How the results depend on the processing

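The numbers of members called kept within 1.5 times the reported ones, in all 3 comparisons, with log2(value + 5), without the filter, with a minimum value of 50, with TMM or median-of-ratios scaling and with only the 2 groups fitted, and the named members tested kept their direction in each of these (46 results, 41 of them tested with the minimum of 50). With a library left out, members higher ranged from 15 to 23 and lower from 7 to 16 for SNL against Sham, from 5 to 18 and from 2 to 8 for UNC0638 against SNL, and from 10 to 23 and from 2 to 8 for UNC0638 against Sham. In the same fits the share of all tested genes called ranged from 39.8% to 53.9%, from 17.2% to 37% and from 38.7% to 57.6%. For UNC0638 against SNL, 11 higher became 7 with the replicate number as a block and 3 with the model term. They became 18 with limma-voom on estimated reads and 26 with Sham and SNL libraries numbered 3 left out, where 4 lower became 8. Of all tested genes 3356 were called in that comparison, and 2126, 1286, 4827 and 5346 under these 4 settings. For UNC0638 against Sham, 17 higher became 11 with the term and 27 with those 2 libraries left out. limma-voom and the fit without both libraries were added after the data were seen, and the term was taken from earlier results of these data; the cause of these shifts was not tested. Of 46 results on named members, 17 missed the threshold with the term, 5 with the replicate block and 2 with only the 2 groups fitted, and none changed direction in any alternative.

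The replicate numbers did not pair the samples: the deviations of same-numbered libraries from their group means correlated over genes at -0.446 to 0.431, above 0.1 in 2 of 10 pairs, and 3 of 11 libraries correlated best with one of their own number. With the block, members called were 20 and 12 for SNL against Sham, 7 and 3 for UNC0638 against SNL and 17 and 6 for UNC0638 against Sham. In the same order they made up 54.2%, 16.9% and 39% of the members, against 44.2%, 17.6% and 45% of all tested genes. The calls lost with the block, besides the losses named with each gene, were Efna4, Ntn3 and Sema3d in the first comparison, Efnb1, Epha1, Epha7, Ntn3, Ntn4, Sema3g and Sema4b in the second and Epha5 and Plxnd1 in the third. The test on whole reads was not run. Members with few estimated reads (Epha1, Robo3, Sema3a, Efna2) are limited by depth.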
